A study of Mus musculus with 4 samples.

Results

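The 10 genes described here belong to, or are related to, the immediate-early genes, which cells switch on within minutes of a stimulus. These 10 were read on Affymetrix Mouse Gene ST 1.1 arrays from Trim28 knockout and wild-type mouse embryonic stem cells. The set holds the Fos family genes Fos, Fosb and Fosl2, the Jun family genes Jun, Junb and Jund, the related gene Atf3, the zinc finger genes Egr1 and Egr2, and Ier2. Each was read from a probe set annotated to that gene alone, with the highest mean taken where a gene had several, and all 10 were found among the 18820 genes compared. Each of the 10 had 1 such probe set. The genes were chosen because Fos, Egr1 and Jun differed between samples by replicate number, so those differences are described below without a test.

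Trim28, also called KAP1, is recruited to DNA by zinc finger proteins with a KRAB domain and silences chromatin there. The study compared 2 knockout samples (title KAP_KO, genotype KAP1 fl/fl) with 2 wild-type samples (title KAP_WT, genotype wild type), each with 1 array and labelled as biological replicates. All 4 samples carry the label 4-OH-tamoxifen, the inducer of the conditional deletion, while the protocol names 24 h of inducer or ethanol vehicle and then 48 h without it. The recombinase that removes the floxed allele, the number of clones, and whether the wild-type cells are the same line before deletion are not given in the sources used here. All cells grew on irradiated embryonic fibroblasts, and the labels name no step that removed these feeder cells.

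Fos and Jun proteins pair through leucine zippers to form AP-1, a dimer that binds DNA and activates or represses nearby genes. Fos family proteins need a Jun partner, whereas Jun proteins can also pair with each other and with Atf3. Growth factor and stress signals reach the Fos, Egr1, Egr2 and Ier2 genes mainly through MAP kinases, serum response factor and CREB, so their transcripts appear quickly and, being unstable, fade quickly. In embryonic stem cells the ERK pathway that feeds them also promotes exit from self-renewal.

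Promoter sequence is shown for Fos, Fosb, Jun, Atf3 and Egr2. That of Fosl2, whose replicates lay close together, is shown beside them. The sequences are RefSeq's on GRCm38.p6, read 5′ to 3′ on the gene's own strand, and 8 of the 10 genes had an entry, all but Egr1 and Ier2. The 250 bases before each start were searched on both strands for the CArG box, which serum response factor binds, for the full CREB site TGACGTCA, for its core TGACG, for TGACATCA, for the AP-1 site TGANTCA and for the Egr site GCGTGGGCG. A full CREB site would also count as a core match. Capitals mark a CArG box, a TGACG (or CGTCA, its reverse complement) or a TGACATCA. The first 5 sequences are the 150 bases before the start, and that of Egr2 is a stretch of 30 bases.
Fos, chr12:85473740-85473889, plus strand: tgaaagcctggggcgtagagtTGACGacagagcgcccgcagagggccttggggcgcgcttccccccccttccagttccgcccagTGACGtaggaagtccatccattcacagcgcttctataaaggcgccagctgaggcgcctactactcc
Fosb, chr7:19310046-19310195, minus strand: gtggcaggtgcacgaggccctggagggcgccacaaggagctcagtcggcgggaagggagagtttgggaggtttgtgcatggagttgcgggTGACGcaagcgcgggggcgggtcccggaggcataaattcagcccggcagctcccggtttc
Jun, chr4:95052223-95052372, minus strand: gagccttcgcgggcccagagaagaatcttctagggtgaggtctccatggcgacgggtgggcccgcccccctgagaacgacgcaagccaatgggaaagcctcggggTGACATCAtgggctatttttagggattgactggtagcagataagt
Atf3, chr1:191183334-191183483, minus strand: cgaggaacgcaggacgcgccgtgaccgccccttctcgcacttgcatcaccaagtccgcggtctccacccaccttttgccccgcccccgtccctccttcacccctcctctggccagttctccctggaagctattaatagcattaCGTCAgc
Fosl2, chr5:32136322-32136471, plus strand: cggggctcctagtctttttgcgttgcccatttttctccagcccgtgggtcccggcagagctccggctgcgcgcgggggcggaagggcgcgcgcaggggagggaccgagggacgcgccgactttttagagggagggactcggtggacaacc
Egr2, chr10:67537792-67537821, plus strand: tcagtCCATATATGGgcagcgaCGTCAcgg

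Counting the base before the start as -1, the core TGACG began at -129 and -66 in Fos and at -60 in Fosb. Jun instead held TGACATCA, beginning at -45, and Atf3 a core match beginning at -7. Junb, whose promoter is not shown, held a core match beginning at -106. Egr2 was listed with 5 windows, and in the stretch shown the CArG box begins at -72 from 1 of these starts. From that start a core match begins at -55, and another, outside the stretch, at -111. Fosl2 and Jund matched none of the 6 motifs, and no gene of the set with an entry held TGACGTCA, TGANTCA or GCGTGGGCG. Among all 32851 mouse promoter windows of that length, 17.8% held TGACG, 1.47% a CArG box, 2.93% TGACATCA, 1.55% TGACGTCA, 6.75% TGANTCA and 0.536% GCGTGGGCG. These matches are letters in a window and were not measured as bound sites.

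Values below are the authors' log2 expression, on which 1 unit is a 2-fold difference. Levels of different genes are not set against each other, because each probe set responds differently. With 2 arrays per group, their number limits the precision, and p-values cover only the spread between these samples. Trim28 itself read 8.97 and 8.92 in the knockout samples, against 11.29 and 11.37 in the wild-type samples, a change of -2.38 (SE 0.09, limma adjusted p = 3.39e-05). Pearson's r over all probe sets was 0.995 between the knockout arrays and 0.994 between the wild-type arrays. Of 12 stem cell markers 8 were lower and 1 was higher in the knockout, and of 17 measured fibroblast markers 12 were higher and 0 lower. Over all genes 12.7% were called lower and 14.2% higher by limma (adjusted p under 0.05). Summed on the linear scale, the fibroblast markers read 1243.5 and 1241.3 in the knockout samples and 605.7 and 514.8 in the wild-type samples. The part of this in the changes below was not tested, and more cells of a type cannot be told apart from more RNA per cell.

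**Figure D1:**
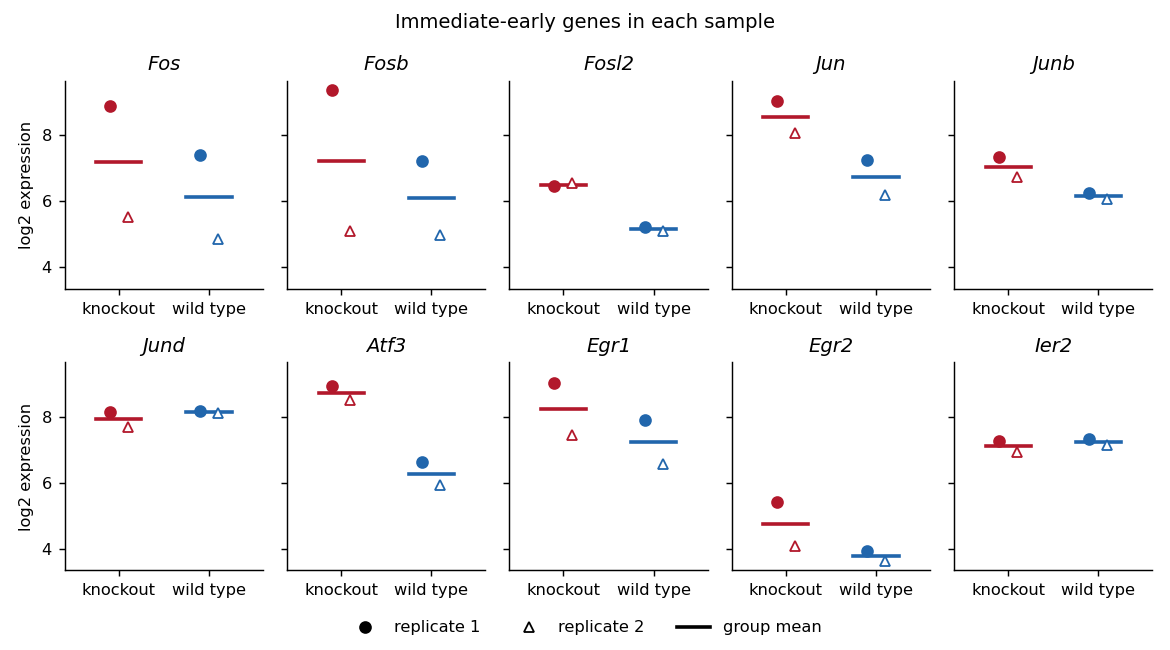
Log2 expression (vertical axis) of each of the 10 genes in knockout (left, red) and wild-type (right, blue) samples; filled circles are replicate 1, open triangles replicate 2, and bars the mean of the 2 samples. Fos and Fosb are far apart between replicates in both genotypes, while Fosl2, Jun, Junb, Atf3 and Egr2 have both knockout samples above both wild-type samples.

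Fos and Fosb differed more between the replicates of each genotype than between the genotypes. Fos, the founding Fos family member, read 8.89 in replicate 1 and 5.51 in replicate 2 of the knockout. In the wild type it read 7.41 in replicate 1 and 4.86 in replicate 2. Replicate 1 was thus the high sample in both genotypes, by 10.4-fold in the knockout and 5.84-fold in the wild type, and the groups overlapped. Fosb, which encodes a close relative of Fos, read 9.36 and 5.10 in the knockout samples and 7.22 and 4.96 in the wild-type samples. Its replicate 1 stood 19.1-fold above replicate 2 in the knockout and 4.80-fold above it in the wild type. Whether the replicate difference of Fosb or Fos was larger in the knockout was not tested, since 1 sample stands for each genotype and number.

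The Egr genes encode zinc finger activators that respond to the same signals. Egr1 read 9.03 and 7.43 in the knockout samples and 7.91 and 6.56 in the wild-type samples. Replicate 1 exceeded replicate 2 by 3.02-fold in the knockout and 2.56-fold in the wild type, and the groups overlapped, because knockout replicate 2 lay below wild-type replicate 1. Egr2, also called Krox20 and known for its role in hindbrain and Schwann cells, read 5.41 and 4.09 in the knockout samples and 3.91 and 3.62 in the wild-type samples. Its 2.50-fold difference between knockout replicates had a counterpart of 1.22-fold in the wild type. All 4 values of Egr2 lay below the medians of their arrays over the genes compared (5.66 and 5.63 in the knockout, 5.46 and 5.48 in the wild type).

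Jun, the main partner of Fos, combined a replicate difference with a larger genotype difference. It read 9.05 and 8.07 in the knockout samples and 7.26 and 6.18 in the wild-type samples, so that both knockout samples exceeded both wild-type samples. Replicate 1 was 1.97-fold above replicate 2 in the knockout and 2.10-fold above it in the wild type. Atf3, a stress-induced bZIP gene whose product pairs with Jun, read 8.94 and 8.50 in the knockout samples and 6.62 and 5.92 in the wild-type samples, 1.36-fold and 1.63-fold apart by replicate. Junb, a Jun relative with weaker activating function, read 7.33 and 6.73 in the knockout samples and 6.26 and 6.06 in the wild-type samples.

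The other 3 genes differed by at most 0.44 log2 units between replicates. Fosl2, which encodes the Fos relative Fra-2, read 6.47 and 6.54 in the knockout samples and 5.20 and 5.09 in the wild-type samples, and it alone had replicate 2 as the higher knockout sample. Jund, the Jun family gene known for steady expression in resting cells, read 8.14 and 7.70 in the knockout samples and 8.17 and 8.10 in the wild-type samples. Ier2, a small nuclear protein gene induced by growth factors, read 7.28 and 6.93 in the knockout samples and 7.32 and 7.15 in the wild-type samples. In these last 2 genes the groups overlapped.

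Replicate 1 was above replicate 2 for 9 of the 10 genes in the knockout (48.6% of all genes), for 10 of 10 in the wild type (49.1%) and for 9 in both genotypes (25.5%). At least 2-fold differences were found for Fos, Fosb, Egr1 and Egr2 in the knockout (0.106% of all genes) and for Fos, Fosb, Egr1 and Jun in the wild type (0.085%). In both genotypes at once, 6 of the 18820 genes (0.0319%) had replicate 1 at least 2-fold higher: Fos, Fosb, Egr1, the mitochondrial autophagy gene Bnip3, the oxygen-sensing prolyl hydroxylase gene Egln3 and the small nucleolar RNA gene Snora28. The genes were chosen on this contrast, so these shares describe the choice. Ranked by the absolute replicate difference among all genes, Fosb and Fos were 1 and 2 in the knockout, and Fos and Fosb were 1 and 3 in the wild type. Median replicate differences over the 10 genes were 0.79 in the knockout and 0.50 in the wild type, against -0.0049 and -0.0034 over all genes. Of the 17 fibroblast markers, 9 were higher in replicate 1 of the knockout, with differences from -0.95 (Dcn) to 0.61 (S100a4), and 13 in replicate 1 of the wild type. Their summed levels are given above, and their part in the replicate differences was not tested.

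**Figure D2:**
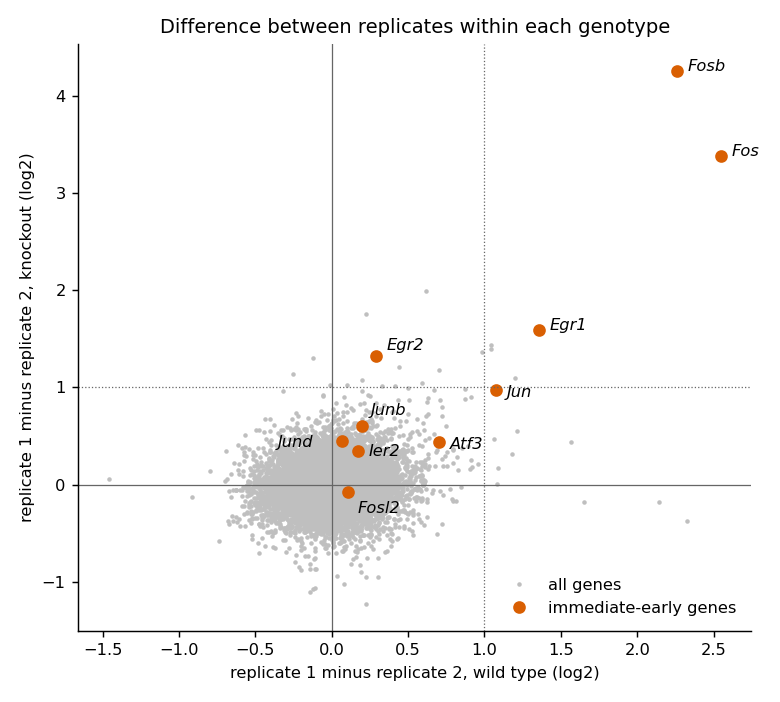
Replicate 1 minus replicate 2 in the wild type (horizontal) and in the knockout (vertical), both in log2 units, for all 18820 genes (grey) and the 10 immediate-early genes (orange); dotted lines mark a 2-fold difference. Fos (2.55 and 3.38) and Fosb (2.26 and 4.26) lie farthest to the upper right, and Fosl2, Jund and Ier2 lie within the cloud.

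By the Euclidean distance from Fos over the 4 centred log2 values, the nearest gene was Fosb, at 0.66, followed by Egr1 at 1.52. Outside the set the nearest were Mgp (matrix Gla protein) at 1.68, Bnip3 at 1.83, the protease inhibitor gene A2m at 1.86, the BMP antagonist gene Grem1 at 2.09 and the opioid precursor gene Penk at 2.14. The microRNA gene Mir27a, the mRNA decay gene Zfp36 and the matrix gene Fbln2 came next, at 2.22, 2.22 and 2.29. Jun stood at 2.14, nearer to Fos than Mir27a, Zfp36 and Fbln2. Junb (2.58), Atf3 (2.82), Ier2 (2.97), Jund (3.00) and Fosl2 (3.00) were less like Fos than all of these outsiders were. Mgp read 6.85 and 4.85 in the knockout samples and 5.21 and 4.59 in the wild-type samples. Such a distance over 4 samples also takes in genes with a high replicate 1 of the knockout alone, as in Grem1, which read 6.10 and 4.34 in the knockout samples and 4.88 and 4.65 in the wild-type samples.

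Ranked instead by the smaller of both replicate differences, Fos, Fosb and Egr1 came first of all genes and Jun was at rank 8. The 8 highest genes outside the set were Snora28 (1.09), Bnip3 (1.05), Egln3 (1.04), A2m (0.98), Mir25 (0.91), Mir19b-1 (0.87), Pramel19 (0.87) and Prmt8 (0.72). Bnip3, known to rise in low oxygen, read 9.55 and 8.12 in the knockout samples and 8.89 and 7.84 in the wild-type samples. Egln3, whose product marks hypoxia-inducible factors for decay, read 8.39 and 7.00 in the knockout samples and 9.14 and 8.10 in the wild-type samples.

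Between the genotypes, 4 of the 10 genes were higher in the knockout by limma after Benjamini-Hochberg adjustment, and 0 were lower. Over all genes, 14.2% were called higher and 12.7% lower (26.9% in all). Atf3 averaged 8.72 ± 0.31 in the knockout and 6.27 ± 0.50 in the wild type (SD, n = 2 each), a rise of 2.45 (SE 0.24, limma adjusted p = 0.000723) or 5.45-fold (95% confidence interval 3.65 to 8.14). Jun averaged 8.56 ± 0.69 in the knockout and 6.72 ± 0.76 in the wild type, a rise of 1.84 (SE 0.41, limma adjusted p = 0.0165) or 3.59-fold (1.83 to 7.02). Fosl2 averaged 6.50 ± 0.05 in the knockout and 5.15 ± 0.08 in the wild type, a rise of 1.35 (SE 0.09, limma adjusted p = 0.000195) or 2.56-fold (2.19 to 2.99). Junb averaged 7.03 ± 0.43 in the knockout and 6.16 ± 0.14 in the wild type, and its rise of 0.86 (SE 0.19, limma adjusted p = 0.0177) or 1.82-fold (1.32 to 2.51) was the smallest of the 4. Of the 4, Fosl2 had the smallest replicate differences and the narrowest interval.

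**Figure D3:**
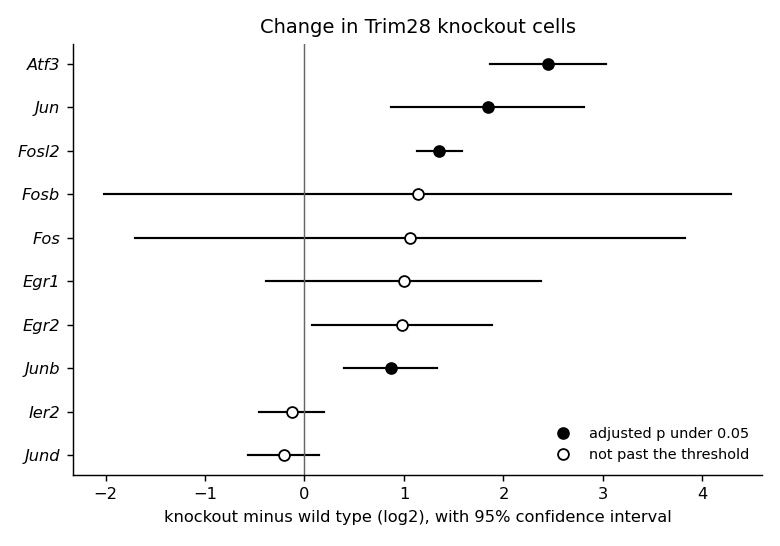
Knockout minus wild type for each gene (log2, horizontal axis) with its unadjusted 95% confidence interval from limma; filled points passed an adjusted p of 0.05. Atf3 (2.45), Jun (1.84), Fosl2 (1.35) and Junb (0.86) passed, and the intervals of Fosb and Fos span more than 5 log2 units.

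For the remaining 6 genes no change passed in this fit. Fosb had a difference of 1.14 (95% confidence interval -2.01 to 4.29, limma adjusted p = 0.584) and Fos one of 1.06 (-1.71 to 3.82, limma adjusted p = 0.561). These intervals take in both a fall and a rise of several fold, so missing the threshold does not show that Fos and Fosb were alike in both genotypes. The wide intervals of Fos, Fosb, Egr1 and Jun come with the replicate difference for which the genes were chosen, since it enters the residual spread. Egr1 had a difference of 1.00 (-0.38 to 2.37, limma adjusted p = 0.263) and Egr2 one of 0.98 (0.07 to 1.89, limma adjusted p = 0.107). The Egr2 groups did not overlap, although its adjusted p missed the threshold. Both differences depended on single samples: without knockout replicate 1 they were 0.20 for Egr1 and 0.32 for Egr2, without knockout replicate 2 they were 1.79 and 1.64, without wild-type replicate 1 they were 1.67 and 1.12, and without wild-type replicate 2 they were 0.32 and 0.84. Jund and Ier2 had narrow intervals, -0.57 to 0.15 around -0.21 and -0.46 to 0.20 around -0.13 (limma adjusted p = 0.365 and 0.551).

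The median change over the 10 genes was 1.03, against -0.05 over all 18820. Both knockout samples exceeded both wild-type samples in 5 of the 10, which held for 26.6% of all genes, and groups were apart in either direction for 65.2%. Subtracting each array's median moved every change by -0.17 and left 2065 genes higher and 6392 lower (24.4% of calls higher, against 52.8% as deposited). Under that scaling and after quantile normalization, 4 of the 10 genes were again higher and 0 lower. The count of higher genes among the 10 depended on single samples. It was 8 without knockout replicate 2, which brought in Fos, Fosb, Egr1 and Egr2, and 4 without knockout replicate 1, when Jund was also lower (-0.43, limma adjusted p = 0.0434) and the change of Junb was 0.56. It was 3 without wild-type replicate 1, when Junb missed with a change of 0.96 (limma adjusted p = 0.0914). It was 2 without wild-type replicate 2, when Jun missed with a change of 1.31 and Junb with 0.77 (limma adjusted p = 0.122 and 0.147). Over all genes, the share called higher was 12.8% without knockout replicate 1, 11.8% without knockout replicate 2, 8.76% when the first wild-type sample was left out and 8.13% when the second was. Atf3 and Fosl2 passed in each of these 4 fits.

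Of 45 other immediate-early genes, all measured, 20 had replicate 1 higher in both genotypes (25.5% of all genes). By at least 2-fold in both, it was 0 (0.0319% of all genes). The largest mean differences of 1 sign were those of Ccn1 (0.31 in the knockout and 1.18 in the wild type) and Ccn2 (0.21 and 0.96), which encode secreted matrix-associated proteins. Klf4, a stem cell factor gene that is also an early response gene, had 0.84 and 0.21, and the NF-kappaB inhibitor gene Nfkbia 0.57 and 0.39. Ptgs2, the inducible cyclooxygenase gene, read 7.66 and 7.85 in the knockout samples and 6.34 and 4.68 in the wild-type samples, so its replicates were apart in the wild type and close in the knockout.

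By genotype, 16 of these 45 genes were higher and 6 lower (limma adjusted p under 0.05), beside 14.2% and 12.7% of all genes. With array medians subtracted 14 were higher and 9 lower, beside 11% and 34% of all genes. Ptgs2 rose by 2.24 (limma adjusted p = 0.0129), the small GTPase gene Rhob by 2.05, the stress gene Gadd45g by 2.03 and Ccn1 by 1.78. The list's median change was 0.13, or -0.04 with array medians subtracted. As deposited, that median lay between 0.0711 and 0.329 when any 1 sample was dropped. Fewer genes of the list were called when either wild-type sample was left out. Fibroblast markers, with a median change of 1.01, were higher in the same knockout samples, and their part in these rises was not tested.

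Among the other AP-1 and related bZIP genes, 2 of 13 measured were higher and 1 was lower, close to the shares over all genes (14.2% and 12.7%). Maff, a small Maf gene without an activation domain, rose by 0.38, and Crem, a CREB relative, by 0.36, while Atf4, a stress response gene, fell by 0.47. Under quantile normalization 0 were higher and 1 lower, beside 13.3% and 15.2% of all genes. With array medians subtracted 0 were higher and 2 lower, beside 11% and 34% of all genes. The counts were 0 and 1 without knockout replicate 1 or without wild-type replicate 1, 1 and 0 without knockout replicate 2, and 0 and 0 without wild-type replicate 2, in fits that also called fewer of all genes. Of the 13 genes 1, the small Maf gene Mafk, had replicate 1 higher in both genotypes, beside 25.5% of all genes. Mafk differed by 0.44 in the knockout and 0.14 in the wild type. Batf (-0.27 and -0.15), Batf2 (-0.25 and -0.17) and Batf3 (-0.28 and -0.04) had it lower.

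Serum response factor, its partners and MAP kinases carry signals to these genes. Of 19 measured genes on that list, 6 were higher and 2 lower, beside 14.2% and 12.7% of all genes. With array medians subtracted 5 were higher and 4 lower, beside 11% and 34% of all genes. The list's median change lay between 0.135 and 0.181 when any 1 sample was dropped, although fewer genes were called in each of these fits. The S6 kinase gene Rps6ka3 rose by 0.79, the JNK kinase gene Map2k4 by 0.70 and the cofactor gene Mrtfb by 0.59. Srf, which encodes serum response factor, read 8.53 and 8.41 in the knockout samples and 7.91 and 7.79 in the wild-type samples, a rise of 0.62 (limma adjusted p = 0.00503). The largest mean replicate difference of 1 sign on this list was that of the p38 kinase kinase gene Map2k6, at 0.30 in the knockout and 0.18 in the wild type. Map2k2 had -0.21 and -0.21, Elk4 0.12 and 0.18, and Srf 0.12 and 0.13.

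Feedback inhibitors shut the response down. Of 18 measured 8 were higher and 3 lower, beside 14.2% and 12.7% of all genes, with a median change of 0.50. Subtracting array medians gave 7 higher and 6 lower, beside 11% and 34% of all genes, and a median change of 0.33. As deposited, the median change lay between 0.37 and 0.59 when any 1 sample was dropped, and the number called higher varied between these fits. The MAP kinase phosphatase genes Dusp4 and Dusp10 rose by 1.83 and 1.15, while Spry4 and Spry2, Sprouty inhibitors of receptor signalling, fell by 1.18 and 0.99. Zfp36, whose product speeds the decay of unstable mRNAs, and Dusp1, an early-induced MAP kinase phosphatase gene, had the largest replicate differences here. Zfp36 read 7.68 and 6.68 in the knockout samples and 6.43 and 5.93 in the wild-type samples, a genotype difference of 1.00 (limma adjusted p = 0.0598). Dusp1 read 10.57 and 9.84 in the knockout samples and 9.87 and 9.24 in the wild-type samples, a difference of 0.65 (limma adjusted p = 0.137). In both genes replicate 1 was the higher sample of each genotype, as for Fos. Spry4 and Dusp5, next on the list, differed by 0.18 and 0.10 in the knockout and by 0.19 and 0.26 in the wild type.

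**Figure D4:**
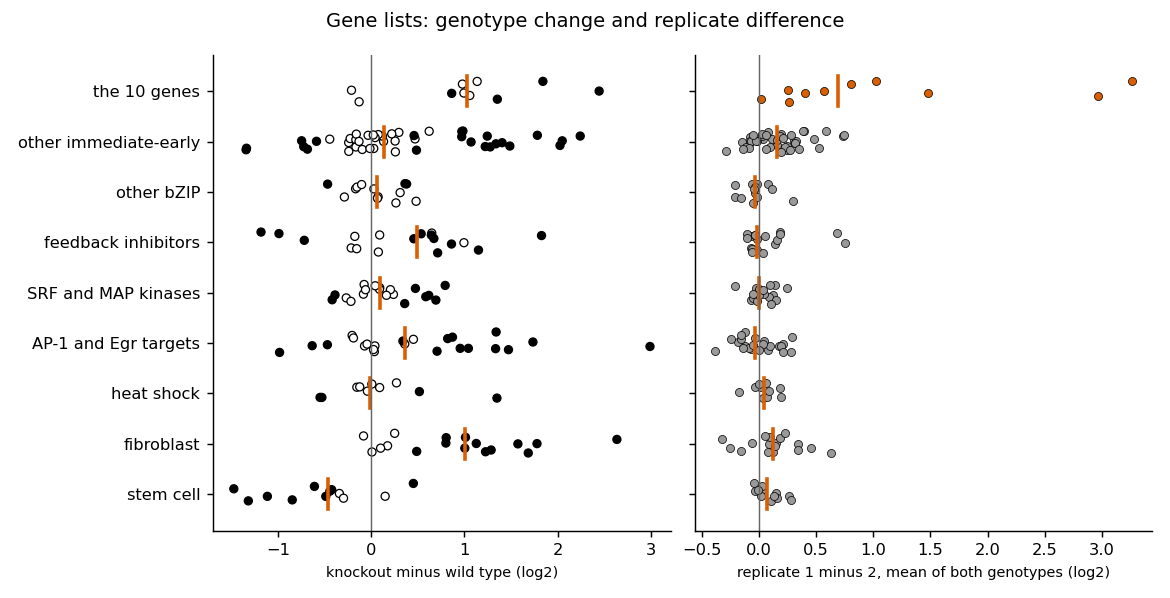
Each point is a gene; the left panel plots knockout minus wild type (log2; filled points passed an adjusted p of 0.05) and the right panel the replicate difference averaged over both genotypes (log2), with orange bars at each list's median. Fos and Fosb reach 2.96 and 3.26 in the right panel, where Zfp36 and Ccn1, at 0.75 each, are the highest points outside the 10 genes.

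Known targets of AP-1 and Egr proteins were measured as well. Of 23 measured targets, 11 were higher and 3 lower in the knockout, beside 14.2% and 12.7% of all genes, with a median change of 0.36. With array medians subtracted 10 were higher and 5 lower, beside 11% and 34% of all genes. As deposited, the median change lay between 0.319 and 0.378 when any 1 sample was dropped. Fewer targets were called when either wild-type sample was left out. The macrophage growth factor gene Csf1 rose by 2.99, the coagulation starter gene F3 by 1.74, the gelatinase gene Mmp9 by 1.47 and Pdgfb by 1.34. Replicate 1 was above replicate 2 in both genotypes for 7 of the 23, near the 25.5% of all genes. Tgfb1 was lower in replicate 1 (-0.43 in the knockout and -0.34 in the wild type), as was Ccnd1 (-0.40 and -0.09), while Cd44 (0.33 and 0.24) and Vegfa (0.42 and 0.14) were higher. The mean replicate difference of Tgfb1, -0.38, was the largest in size among targets of 1 sign.

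Heat-shock genes are another early response to stress. Of 13 listed genes 10 were measured, so the list is incomplete here. Of these 10, 1 (Hspb1, a small heat-shock protein gene) had replicate 1 higher in both genotypes, beside 25.5% of all genes. It differed by 0.34 in the knockout and 0.04 in the wild type. By genotype 2 were higher and 2 lower, near the 14.2% and 12.7% of all genes. With array medians subtracted 1 was higher and 4 lower, beside 11% and 34% of all genes. The co-chaperone genes Bag3 and Dnajb1 rose by 1.35 and 0.52, while Hspb1 fell by 0.55 and Hsph1 by 0.53. The median change of these genes lay between -0.118 and 0.0527 when any 1 sample was dropped, although the number called varied between these fits.

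Marker genes of both cell types differed between replicates by less than Fos did. Among fibroblast markers of 1 sign, the collagen cross-linking gene Lox differed most (0.17 in the knockout and 1.09 in the wild type), followed by S100a4 (0.61 and 0.30), Postn (0.40 and 0.28) and Col1a1 (0.18 and 0.49). By genotype Dcn rose by 2.64, Col1a1 by 1.78, Lox by 1.69 and Pdgfrb by 1.57. Of the 12 stem cell markers, 11 were higher in replicate 1 of the knockout (48.6% of all genes) and 6 in replicate 1 of the wild type (49.1%). The largest mean differences of 1 sign were those of Sox2 (0.41 and 0.16), Utf1 (0.30 and 0.01), Dppa5a (0.15 and 0.15) and Tdgf1 (0.18 and 0.08). Esrrb had the largest difference in the knockout, 0.56, and -0.04 in the wild type. Fgf4 fell by 1.47, Tfcp2l1 by 1.32, Esrrb by 1.11 and Sox2 by 0.85 in the knockout. The median change of the 12 stem cell markers was -0.46 with all 4 samples. It stayed between -0.52 and -0.44 when any 1 sample was dropped, although the number of markers called varied between these fits.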

How the data were processed

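Per the submitters' processing notes, the authors used affy and RMA, and they deposited log2 expression values for 35556 probe sets; versions are not given in the sources used here. Per the labels' protocols, cDNA was made from 250 ng of total RNA per sample. RMA subtracts background, normalises arrays and summarises probes, which compresses small differences among dim probe sets. No detection calls were used, so signal over background is unknown. Platform annotation gave 1 gene symbol for 21218 probe sets, several for 1881 and none for 12457; of the single-symbol ones 21185 matched a GRCm38.p6 gene. The probe set with the highest mean was kept for each of 18820 genes.

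The genotype contrast was fitted in R 4.3.3 with the limma 3.58.1 functions lmFit and eBayes (two-sided, Benjamini-Hochberg over all genes, threshold 0.05), giving 2 residual and 4.70 prior degrees of freedom. The fit was tested on simulated data with independent noise and no replicate-number difference. Such data cannot show how the fit performs for genes with that difference, such as Fos. Replicate differences have 1 sample a side and no test.

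The genes and lists were chosen with earlier results of these data known. Named are all 10 genes, Trim28, up to 4 called genes per list with the largest change, up to 4 per list with the largest mean replicate difference of 1 sign, and 8 genes nearest to Fos by each of 2 measures. Ptgs2 was described by replicate after its values were seen. The alternatives were the replicate block, a trended or robust prior, quantile normalization, array medians subtracted, a filter on dim genes, the mean of probe sets, an adjusted p of 0.1 and each sample left out.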

Additional observations from a re-analysis of the deposited data

How the results depend on the processing

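The labels do not say that a replicate number marks a shared batch or day, so same-numbered samples share only a number; the correlation of their deviations over all genes was 0.145. With replicate number as a block, 7 of the 10 genes were called, 7 of them higher, in place of 4. Over all genes that fit called 14.3% higher and 12.8% lower, beside 14.2% and 12.7% without the block. Fos, Egr1 and Egr2 then passed (limma adjusted p = 0.0147, 0.00218 and 0.0332) and Fosb did not (0.116). The block removes the very difference for which the genes were chosen. With array medians subtracted 8457 of all genes were called, which follows from the shift of every change by -0.17. In the other alternatives with all 4 samples, counts over the 10 genes and over all genes stayed within 1.5 times and no single gene of the set changed its call or direction.

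With 1 sample left out at a time, and the lone sample of a group assumed to vary like the other group, 2 to 8 of the 10 genes were called, 2 to 8 higher and 0 to 1 lower. All genes called ranged from 2430 to 4350, and the median change of the 10 genes from 0.26 to 1.72. The change ranged from -0.63 to 2.75 for Fos, from -0.99 to 3.27 for Fosb, from -0.43 to 0.012 for Jund and from -0.30 to 0.045 for Ier2, so these 4 turned direction: Fos without knockout replicate 1 (-0.63) or wild-type replicate 2 (-0.21), Fosb without knockout replicate 1, and Jund and Ier2 without knockout replicate 2. Atf3 (2.10 to 2.80), Fosl2 (1.30 to 1.41), Jun (1.31 to 2.38), Junb (0.56 to 1.17), Egr1 (0.20 to 1.79) and Egr2 (0.32 to 1.64) did not. Detection limits of single probe sets could not be set without background intensities.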
